A study of Homo sapiens with 12 samples.

Results

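The response shared by 3 gene knockdowns in a kidney cancer line was described by setting 9 knockdown libraries against 3 parental ones. A gene belonged to the shared response when its 9 knockdown values all lay on one side of its 3 parental values, in CPM (read counts normalised by the size of each library with TMM). Of 12301 genes tested, 1457 met this rule, which is 11.8%. In 660 genes (5.37%) every knockdown value was higher than every parental value, and in 797 (6.48%) every one was lower.

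The cells were 786-O, an established human line of clear cell kidney cancer in which VHL, the ubiquitin ligase subunit that removes HIF2A, is lost. One group was the parental line, and the other 3 expressed shRNAs: shHIF2A silences EPAS1, which encodes HIF2A, shJUNs silences JUN, JUNB and JUND at once, and shYAPTAZ silences YAP (gene YAP1) and TAZ (gene WWTR1). All 4 groups, parental cells included, received doxycycline for 72 hours, the drug that switches the shRNAs on. The knockdown lines had been selected with puromycin, blasticidin or hygromycin according to the number of genes silenced, per the labels' protocols. Each group had 3 libraries, which the labels call technical replicates, so p-values measure only the spread between these libraries. A control shRNA was not among the lines analysed here. What the 3 knockdowns share through their targets therefore cannot be told apart from what they share as selected, shRNA-expressing lines.

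HIF2A is the hypoxia-inducible factor that stays stable in cells without VHL and drives genes of angiogenesis, glucose uptake, lipid storage and growth in this cancer. JUN proteins are subunits of AP-1, a dimeric transcription factor that answers growth and stress signals. YAP and TAZ are coactivators that bind TEAD factors at enhancers when the Hippo kinases are inactive. AP-1 and TEAD factors often occupy the same enhancers in cancer cells.

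Polyadenylated RNA was read from its 3′ ends by BRB-seq, which pools barcoded samples early. Total counts ran from 2272459 to 4469956 per library, and 15145 to 16734 genes had at least 1 count. The share of counts from mitochondrial DNA was 6.33% to 9.37%. Correlations of log2 CPM across genes were 0.908 to 0.961 within groups, 0.829 to 0.910 between parental and knockdown libraries (median 0.875) and 0.845 to 0.921 between libraries of different knockdowns (median 0.888). These are descriptions across genes, which are not independent replicates. Of 12 blood cell markers 9 had no count in any library, among them CD3E and LYZ, and the summed level of the list was at most 3.50 CPM. Of 10 endothelial markers 5 had no count, among them PECAM1 and CDH5, and the sum was at most 2.89 CPM. Fibroblast markers summed to 39.4 to 44.1 CPM in parental libraries, 60.6 to 78.6 in shHIF2A, 35.5 to 41.7 in shJUNs and 40.8 to 54.5 in shYAPTAZ, none of the 9 at 0 throughout. Neural markers summed to 54.3 to 85.2, 27.1 to 50.7, 36.7 to 51.9 and 50.4 to 113 CPM in the same order, with OLIG2 at 0. The part of these lists in the results was not tested.

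The pooled comparison tested the mean of the 3 knockdown groups less parental in edgeR's quasi-likelihood fit of all 12 libraries, with p-values adjusted by Benjamini-Hochberg over the 12301 genes and a threshold of 0.05. It called 1498 genes higher (12.2%) and 1599 lower (13%), together 3097 (25.2%). Of the 660 genes with every value higher, 627 were called higher, and of the 797 with every value lower, 743 were called lower. The rule and this test use the same contrast, so the test adds no independent support for these genes. Without parental replicate 1 the test called 925 genes higher and 1020 lower. Leaving out a library also loosens the rule itself, and without parental replicate 3 it was met by 1091 rises and 1240 falls. In bulk RNA, fewer cells of a type and less RNA per cell cannot be told apart. A further 871 called rises and 856 called falls had at least 1 overlapping library. A gene that meets the rule is said below to have separate libraries. All adjusted p-values below are from this fit unless another is named, and log2 changes are given with their standard error (SE).

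A microRNA gene was among the largest rises. MIR30A (ENSG00000207827, chromosome 6, 71403551 to 71403621, hg38) encodes the hairpin of miR-30a, which is cut into a mature strand from each arm. The sequences are shown because the counted feature is only this hairpin of 71 bases (chr6:71403551-71403621, minus strand, RefSeq, GRCh38.p14). Capitals mark the 2 mature arms in the hairpin and the seed, bases 2 to 8, in each mature strand.
MIR30A hairpin: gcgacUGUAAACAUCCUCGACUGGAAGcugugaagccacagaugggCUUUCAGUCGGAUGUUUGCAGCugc
hsa-miR-30a-5p: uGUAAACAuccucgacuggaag
hsa-miR-30a-3p: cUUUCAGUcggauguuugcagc

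MIR30A had 2, 3 and 1 counts in the 3 parental libraries. The shHIF2A libraries had 82, 76 and 68 counts, the shJUNs libraries 178, 140 and 115, and the shYAPTAZ libraries 153, 223 and 146. Scaled to library size, this was 0.698, 0.844 and 0.283 CPM in parental libraries against a lowest, median and highest knockdown value of 23.7, 35.2 and 71.0 CPM. All 9 knockdown libraries stood far above all parental ones (log2 change 5.82, SE 0.42, adjusted p = 1.18e-09). The lines also differed from each other, with means of 23.8 CPM in shHIF2A, 34.2 in shJUNs and 58.5 in shYAPTAZ (adjusted p = 0.005 for the edgeR test among the 3 lines).

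The other members of the miR-30 family, MIR30B, MIR30C1, MIR30C2, MIR30D and MIR30E, had no count in any library. LINC00472, whose gene spans MIR30A, had 44 counts over the parental libraries and 51, 84 and 34 over shHIF2A, shJUNs and shYAPTAZ. OGFRL1, a neighbouring coding gene, had 2841 against 3156, 5475 and 2558. Neither LINC00472 nor OGFRL1 passed the pooled test (adjusted p = 0.864 and 0.198). Inducible shRNA vectors often carry a miR-30 backbone. The labels do not name the vector used here, and reads of the genomic locus and reads of a vector cannot be told apart in a gene count. Only 3 of 1808 microRNA hairpin genes in the table had enough counts to be tested.

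**Figure D1:**
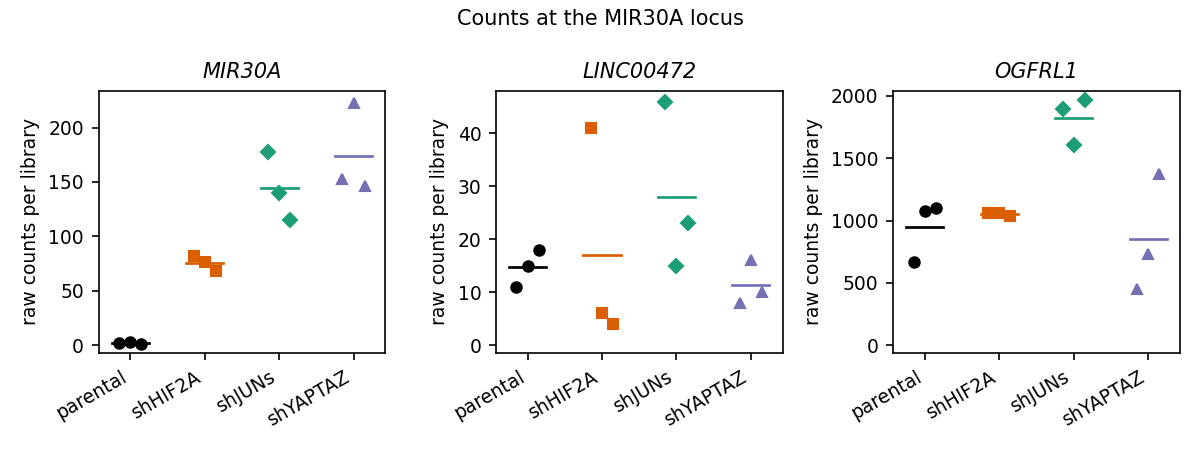
Raw counts per library at MIR30A, at LINC00472, which spans it, and at the neighbour OGFRL1, for the 4 groups; points are libraries and lines are group means. MIR30A went from 1 to 3 counts per parental library to between 68 and 223 counts in knockdown libraries, while for the other 2 genes the parental counts lay within the range of the 9 knockdown counts.

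Many genes of the hypoxia response fell in the knockdown lines. Of 36 HIF targets listed 35 were tested, 22 fell and none rose by edgeR, and in 19 every knockdown value lay below every parental value. Their median log2 change was -1.38, against -0.0006 over all genes tested. The median was -1.42 in shHIF2A, -1.19 in shJUNs and -1.18 in shYAPTAZ, each set against the same parental libraries. Without parental replicate 1, which had the largest summed level of the list, 19 fell and 1 rose, with a median of -1.15. The list and the others below were chosen with earlier results of these data known. Counts of genes called in each list stand beside 12.2% higher and 13% lower over all genes tested.

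SLC2A1, which encodes GLUT1 for basal glucose uptake (chromosome 1, 42925353 to 42958893, ENSG00000117394), was at 1792, 1606 and 1323 CPM in parental libraries. Knockdown libraries ran from 209 through a median of 411 to 568 CPM, so the highest of them was well under the lowest parental one. The fall was 4.45-fold (log2 change -2.15, SE 0.10, adjusted p = 4.59e-13). It was deeper in shHIF2A, at a mean of 215 CPM, than in shJUNs at 428 or shYAPTAZ at 483 (adjusted p = 2.6e-06 among lines). The divergent transcript SLC2A1-DT beside it also fell, 2.99-fold (adjusted p = 0.0114). The strand setting of the counting is not stated, so reads of overlapping or antisense partners cannot be told apart.

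DDIT4, an inhibitor of the growth kinase mTORC1 that hypoxia and stress induce (ENSG00000168209, chromosome 10, 72273919 to 72276036), measured 2165, 1599 and 1409.6 CPM in parental libraries. Its knockdown values were 115, 159 and 351 CPM at the lowest, median and highest. Every line lost most of the transcript, and the 3 means, 139, 172 and 246 CPM, did not pass the test among lines (adjusted p = 0.15). The pooled fall was 9.56-fold (log2 change -3.26, SE 0.22, adjusted p = 9.02e-07).

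PLIN2, the coat protein of lipid droplets and a feature of the clear cell look, stood at 995, 506 and 362 CPM in parental libraries and at 85.5, 126 and 153 CPM at the lowest, median and highest of the knockdown libraries. Parental replicate 1 was the highest, yet the lowest parental value was still above every knockdown value (4.99-fold lower, adjusted p = 7.25e-07). HILPDA, an inhibitor of the lipase ATGL on lipid droplets, fell 2.88-fold (adjusted p = 9.99e-06), and FADS1, a fatty acid desaturase, fell 2.47-fold (adjusted p = 4.64e-06). Of 23 genes for making fatty acids and coating lipid droplets 7 fell and none rose by edgeR, with a median log2 change of -0.05. Among these falls PLIN2, HILPDA and SCD stand on the HIF list too.

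VEGFA, the main angiogenic growth factor, was at 459.7, 244 and 242 CPM in parental libraries and between 44.9 and 160.3 CPM in knockdown ones, with a median of 90.8. It fell 3.92-fold (adjusted p = 1.46e-07). ADM, the vasodilator adrenomedullin, went from 382, 182 and 139 CPM to a knockdown median of 46.7, a fall of 6.14-fold (adjusted p = 1.51e-05). EGLN3, an oxygen-sensing prolyl hydroxylase that HIF itself induces, fell 7.47-fold (adjusted p = 8.84e-06), and NDRG1, a stress-induced gene, fell 21.0-fold from 65.3, 41.9 and 28.3 CPM to a median of 1.34 (adjusted p = 7.97e-06). DEPP1, a regulator of autophagy, fell 12.9-fold from 659, 516 and 437 CPM to a median of 35.0 (adjusted p = 8.82e-11).

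Other members of the list did not meet the rule. CA12, a carbonic anhydrase, fell 5.11-fold in the pooled test, with 1 knockdown library at 186 CPM against a lowest parental value of 185. HK2, a hexokinase, was also called lower with overlapping libraries (adjusted p = 0.0415). CA9, PDK1, BNIP3 and NDUFA4L2, often used as hypoxia markers, did not pass (adjusted p = 0.938, 0.28, 0.0561 and 0.615), and CA9 was at 3.09 CPM or less in each parental library. Glycolysis genes had no common direction: of 21, 6 were called higher and 7 lower, and without parental replicate 1 the counts were 3 and 5. ENO2, an enolase, fell 4.51-fold and PFKP, a phosphofructokinase, fell 1.85-fold, while PYGL, glycogen phosphorylase, rose 2.07-fold and GYS1, glycogen synthase, rose 1.99-fold.

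**Figure D2:**
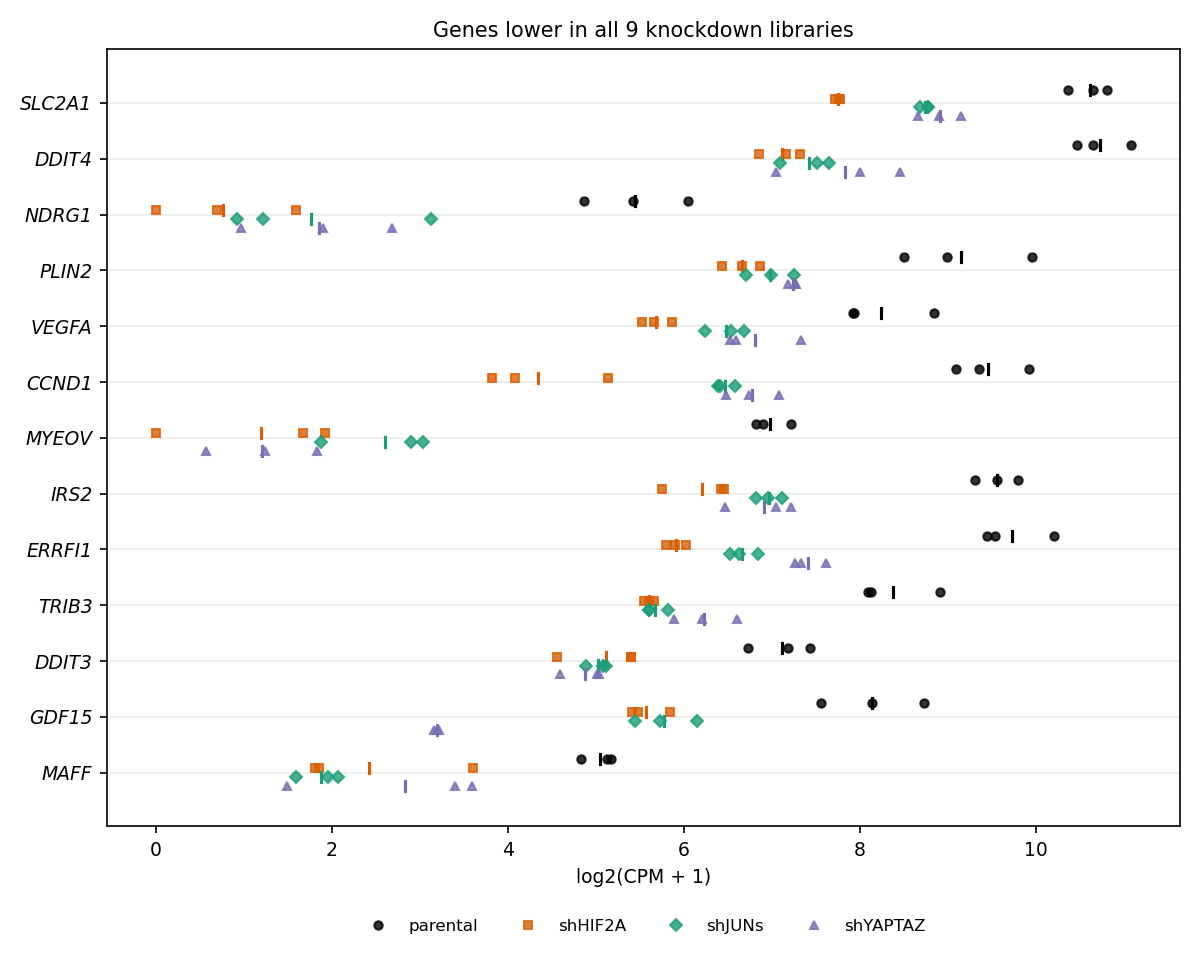
CPM, plotted as log2(CPM + 1), of 13 genes with every knockdown value below every parental value; points are libraries, vertical bars are group means of the plotted values. The 3 parental libraries lie to the right of all 9 knockdown libraries for each gene, and the depth of the fall differed between lines for CCND1 and GDF15.

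A further list with falls and no rise was the integrated stress response, the program through which ATF4 raises amino acid uptake and synthesis when translation is curbed. Of 28 genes tested 22 fell and none rose by edgeR, 18 with every library separate, and the median log2 change was -0.94. DDIT4 and ATF3, described with other lists, also stand on this one. TRIB3, a pseudokinase induced by ATF4 and CHOP, was at 479, 279 and 272 CPM in parental libraries and at 45.8, 49.6 and 96.2 CPM at the lowest, median and highest of the knockdown libraries (6.06-fold lower, adjusted p = 4.23e-11). DDIT3, which encodes CHOP, went from 172, 144 and 105 CPM to 22.6, 31.8 and 41.3 CPM. DDIT3 fell 4.42-fold (adjusted p = 6.62e-09), and its 3 lines did not pass the test among them (adjusted p = 0.69).

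Amino acid genes carried much of this list. SLC7A5, the large neutral amino acid transporter LAT1, was at 1089, 1174 and 1257 CPM in parental libraries and ran from 160.0 through 337 to 594 CPM in knockdown ones. SLC7A5 fell 3.57-fold (adjusted p = 2.63e-11) and was lowest in shYAPTAZ, at a mean of 166 CPM against 369 in shHIF2A and 579.7 in shJUNs (adjusted p = 2.3e-08 among lines). Its partner chain SLC3A2 fell 2.36-fold, PSAT1 of serine synthesis 3.08-fold, CTH of cysteine synthesis 5.41-fold and MTHFD2 of mitochondrial folate metabolism 2.47-fold. The mRNA of ATF4 itself fell 1.63-fold, from 329.8, 292 and 281 CPM to a median of 181 (adjusted p = 0.000117). CHAC1 and STC2 did not pass (adjusted p = 0.91 and 0.0854).

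CCND1, cyclin D1 (ENSG00000110092, chromosome 11, 69641156 to 69654474), was at 967, 654 and 547 CPM in parental libraries and at 13.1, 84.3 and 135 CPM at the lowest, median and highest of the knockdown libraries. It fell 12.3-fold (log2 change -3.62, SE 0.20, adjusted p = 1.34e-09), most in shHIF2A at a mean of 21.1 CPM against 87.4 in shJUNs and 109.7 in shYAPTAZ (adjusted p = 6e-05 among lines). MYEOV, which lies upstream of CCND1 (chromosome 11, 69294151 to 69341682), went from 148, 112 and 118 CPM to a knockdown range of 0 to 7.21 CPM with a median of 2.55 (54.1-fold lower, adjusted p = 7.68e-11). A gene without a symbol between them, ENSG00000260877, fell as well (7.49-fold, adjusted p = 0.00191), so 3 tested neighbours in a row were lower.

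ERRFI1, the inhibitor of the EGF receptor also called MIG6, was at 1183, 697 and 743 CPM in parental libraries and at 54.6, 97.7 and 196 CPM at the lowest, median and highest of the knockdown libraries (8.70-fold lower, adjusted p = 1.48e-13). TGFA, a ligand of that receptor, fell 7.74-fold from 583, 321 and 287 CPM to a median of 55.7 (adjusted p = 1.84e-06). IRS2, the adaptor of insulin and IGF receptors, fell 7.26-fold from 888, 752 and 634 CPM to a median of 112 (adjusted p = 4.67e-12). IGFBP3, which binds IGFs and stands on the HIF and YAP/TAZ lists, fell 3.15-fold from 3453, 2009 and 1697 CPM to a median of 753. Over all 30 receptor tyrosine kinases and ligands tested, 6 fell and 4 rose, and IGFBP6, another IGF-binding protein, rose 2.97-fold.

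FZD8, a Wnt receptor, was at 79.2, 44.7 and 27.7 CPM in parental libraries and had a knockdown median of 2.10 CPM and a maximum of 10.5 (21.7-fold lower, adjusted p = 1.67e-08). Its neighbours CCNY and CCNY-AS1 were lower too, 1.46-fold and 8.23-fold (adjusted p = 0.0051 and 0.00233). DUSP1, a phosphatase that ends MAP kinase signals, fell 4.52-fold from 451, 475 and 339.7 CPM to a median of 100.1 (adjusted p = 5.34e-10). GDF15, a stress cytokine on the p53 list, fell 10.7-fold from 422, 280.0 and 188 CPM to a median of 42.7 (adjusted p = 8.91e-12) and was lowest in shYAPTAZ, at a mean of 8.13 CPM. SMPDL3A, a sphingomyelinase-like enzyme, fell 7.76-fold, and the non-coding RNAs LUCAT1 and OLMALINC fell 8.38-fold and 10.0-fold.

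AP-1 subunits were tested as a list that includes the shRNA targets. Of 13 tested 7 fell and none rose by edgeR, and all but JUN of these met the rule: JUND, a target, and MAFF, ATF3, MAF, ATF2 and MAFG. MAFF, a small MAF protein, went from 27.6, 34.0 and 35.0 CPM to 1.82, 2.88 and 11.2 CPM at the lowest, median and highest (6.65-fold lower, adjusted p = 1.77e-05). ATF3, a stress-induced AP-1 partner, fell 3.70-fold and MAF 2.23-fold, while FOSL1, FOSL2 and FOS did not pass (adjusted p = 0.203, 0.728 and 0.821). Of 25 AP-1 target genes 5 fell and 2 rose, with a median log2 change of 0.00. That median was -0.57 in shHIF2A, -0.17 in shJUNs and 0.25 in shYAPTAZ, and 11 of the 25 differed among lines by edgeR.

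Among 21 YAP/TAZ targets 12 fell and 3 rose, 8 of the falls with separate libraries, and the median log2 change was -0.59. AMOTL2, an angiomotin that feeds back on YAP, was at 321, 256 and 259 CPM in parental libraries and between 46.3 and 148 CPM in knockdown ones, with a median of 94.98 (3.11-fold lower, adjusted p = 1.73e-08). LATS2, a Hippo kinase, fell 2.69-fold and NUAK2 2.98-fold. CCN1, a secreted matricellular protein, was called lower with overlapping libraries (adjusted p = 0.0415), whereas its relative CCN2 was called higher, 2.36-fold (adjusted p = 0.00543). The median was -0.86 in shYAPTAZ, -0.40 in shHIF2A and -0.36 in shJUNs. Of 23 genes of the Hippo pathway and TEAD factors 9 fell and 2 rose, 4 of the falls with separate libraries, LATS2 and AMOTL2 among them.

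The shRNA targets themselves show how far their loss was shared. JUND alone met the rule: it was at 310.3, 390.3 and 366 CPM in parental libraries and at 34.2, 172 and 269 CPM at the lowest, median and highest of the knockdown libraries, with line means of 220.1 in shHIF2A, 38.6 in shJUNs and 170.0 in shYAPTAZ. EPAS1, JUN and YAP1 were called lower in the pooled test, and JUNB and WWTR1 did not pass (adjusted p = 0.214 and 0.771). JUN was at means of 80.2 CPM in shHIF2A, 85.6 in shJUNs and 155 in shYAPTAZ, against 153 in parental cells. JUNB was at 156, 113 and 197 CPM in the same order, against 192. YAP1 was at 46.1, 57.1 and 14.1 CPM, against 65.4. Set against parental cells line by line in edgeR, YAP1 passed only in shYAPTAZ (adjusted p = 0.143, 0.617 and 1.2e-06). WWTR1 did not move one way, at a mean of 504 CPM in shHIF2A, 441 in shJUNs and 153 in shYAPTAZ, around parental values of 239 to 369. EPAS1 was at 15.97 CPM in shHIF2A and 37.1 in shJUNs, and 1 of its shYAPTAZ libraries, at 172 CPM, lay within the parental range of 148 to 267 CPM.

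Some genes of mitosis fell. Of 33 mitosis genes 15 fell and none rose by edgeR, 7 with separate libraries (median log2 change -0.59). TOP2A, the topoisomerase of dividing cells, went from 529, 534 and 612 CPM to a knockdown range of 179.7 to 404 CPM with a median of 345 (1.73-fold lower, adjusted p = 6.94e-05), and MKI67 fell 1.78-fold. The summed level of this list was 3996, 4611 and 5012 CPM in parental libraries 1, 2 and 3, and 1899, 2661 and 3744 CPM in shHIF2A. It was 2822, 3143 and 3251 CPM in shJUNs and 3068, 4166 and 4407 CPM in shYAPTAZ. In each group the library numbered 1 was the lowest and the one numbered 3 the highest, and at each number the parental library was above the 3 knockdown libraries. The highest shYAPTAZ library was above the lowest parental one. Of 34 S phase genes only 4 fell and 1 rose, beside 13% and 12.2% of all genes tested. MCM6 at 1.45-fold and RFC4 at 1.79-fold were among the falls.

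Of 29 p53 targets 15 fell and 2 rose, but 5 of the falls had separate libraries, and without parental replicate 1 the counts were 7 and 0. The list's median log2 change was -0.09 in shHIF2A, -0.11 in shJUNs and -1.39 in shYAPTAZ, and 19 of the 29 differed among lines. CDKN1A, the cell cycle inhibitor p21, was at 416, 259.8 and 206 CPM in parental libraries and ended at a mean of 169.9 in shHIF2A, 159 in shJUNs and 31.2 in shYAPTAZ (3.10-fold lower, adjusted p = 6.35e-08, and 6.5e-08 among lines). Of 52 cytosolic ribosomal proteins 14 fell and 1 rose, and 10 had every library lower. RPLP1, of the ribosomal stalk, fell 1.45-fold (adjusted p = 4.92e-06). Ribosomal protein genes have many near-identical pseudogenes, so the split of their reads is uncertain.

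**Figure D3:**
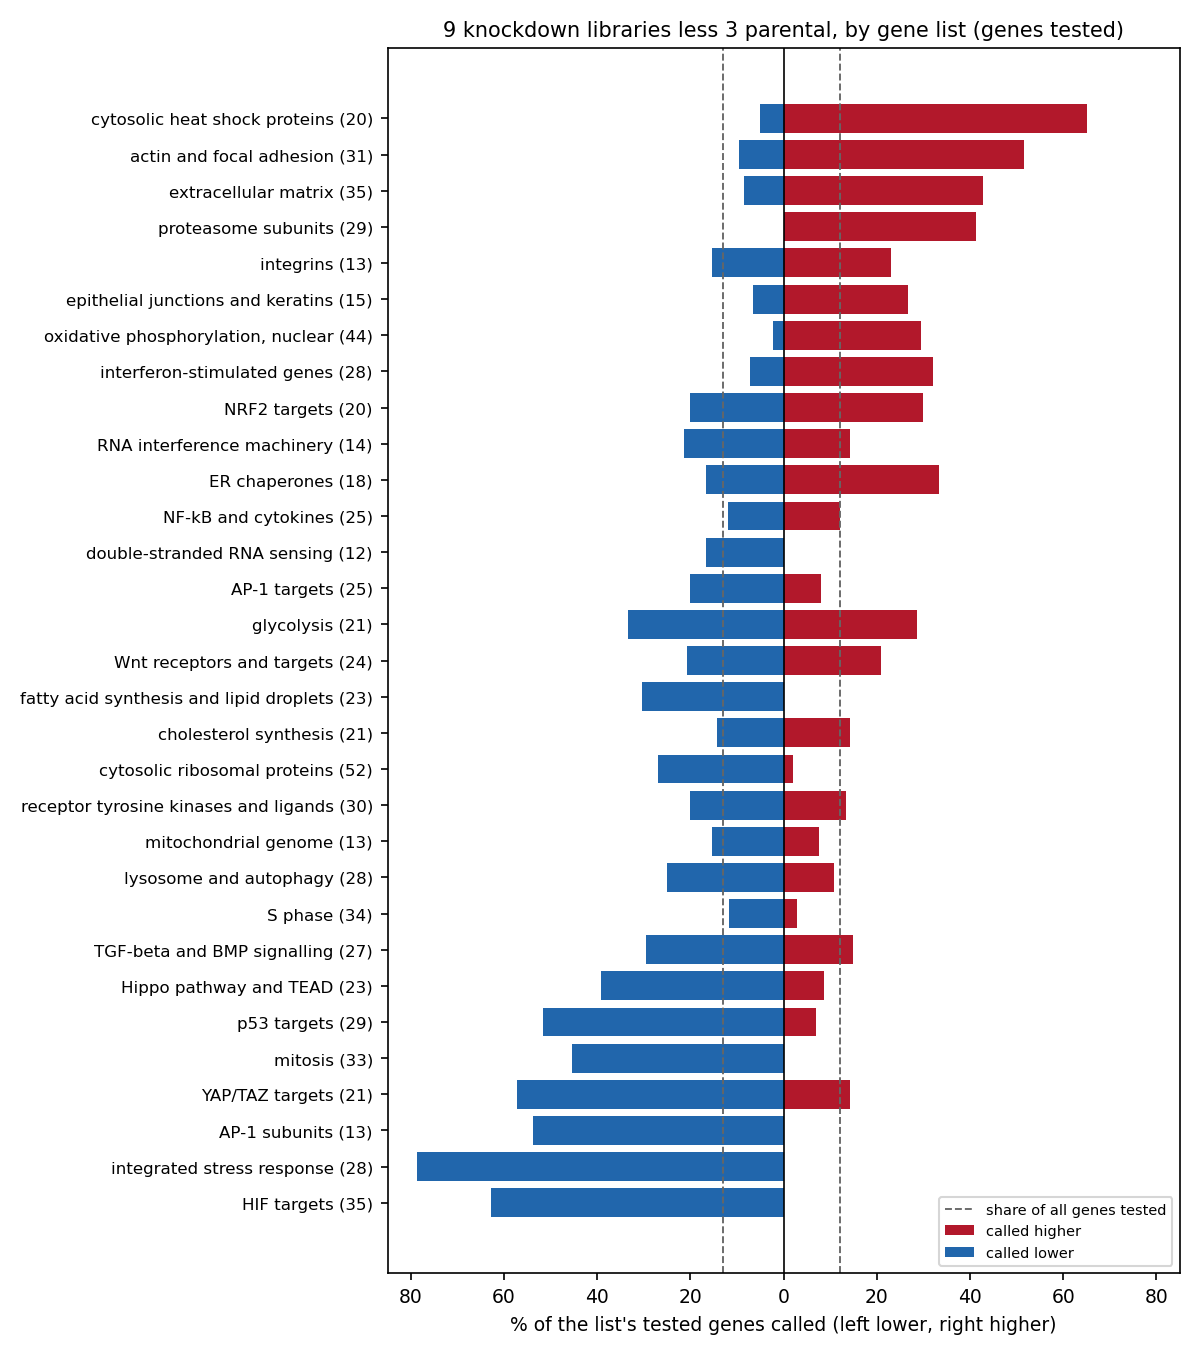
Share of each gene list called higher (right) or lower (left) in the pooled edgeR test, with the number of genes tested in brackets and lists ordered by median log2 change; dashed lines are the shares of all 12301 genes, 12.2% and 13%. For HIF targets 22 of 35 genes and for the integrated stress response 22 of 28 were called lower and none higher, and 13 of 20 cytosolic heat shock proteins were called higher.

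EIF1, a translation initiation factor that selects start codons, fell by nearly the same factor in each line. It was at 4058, 3224 and 2900.0 CPM in parental libraries and at 1552, 1744 and 1918 CPM at the lowest, median and highest of the knockdown libraries (1.94-fold lower, adjusted p = 3.35e-08). Its line means, 1682, 1732 and 1834 CPM, did not pass the test among lines (adjusted p = 0.66). RPLP0 and RPL8, ribosomal proteins, also had every library lower.

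Turning to genes higher in all 9 libraries, those called, with a symbol and averaging 10 CPM or more were ranked by their least changed line. CEMIP, the hairpin gene described above, SATB1 and IFI44L came first. CEMIP, which degrades hyaluronan (ENSG00000103888, chromosome 15, 80779343 to 80951776), was at 0.349, 0.562 and 0.283 CPM in parental libraries, 4 counts in all. It reached 28.6, 55.2 and 64.0 CPM at the lowest, median and highest of the knockdown libraries (log2 change 6.82, SE 0.36, adjusted p = 7e-12). SATB1, a chromatin organiser, had no parental count and 598 counts over the knockdown libraries, at least 62.6-fold higher when 3 counts are taken as the limit for the parental group. The lines differed widely for SATB1, at means of 1.17 CPM in shHIF2A, 16.9 in shJUNs and 43.2 in shYAPTAZ. Its bound is for the 9 libraries together and does not hold for shHIF2A alone, which had 11 counts. Its place in the ranking rests on that line and on the small prior count that the fit adds.

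TNC, a glycoprotein of remodelled matrix (chromosome 9, 115019575 to 115118207, ENSG00000041982), was at 7.33, 7.31 and 9.04 CPM in parental libraries and at 60.8, 222 and 269 CPM at the lowest, median and highest of the knockdown libraries. TNC rose 20.2-fold (adjusted p = 4.59e-13), less in shHIF2A, at a mean of 69.4 CPM, than in shJUNs at 241 or shYAPTAZ at 247 (adjusted p = 7.4e-08 among lines). FN1, fibronectin, rose 2.20-fold from 489, 452 and 530.0 CPM to a median of 1054, and FBN1, fibrillin, 11.6-fold from a parental maximum of 2.53 CPM. Of 35 matrix genes 15 rose and 3 fell, but 5 of the rises had separate libraries. NID2 and COL6A3 were called higher with libraries that overlapped, since shYAPTAZ held most of their level (NID2 at a mean of 128 CPM there, 2.39 in shHIF2A and 3.70 in shJUNs).

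Other surface and secreted proteins rose in every line. KCNK3, a potassium channel, went from 2.79, 1.97 and 0.565 CPM to 16.5, 29.6 and 57.4 CPM at the lowest, median and highest (16.8-fold, adjusted p = 3.21e-07). SEMA3A, a guidance cue, rose 17.4-fold, PLPP3, a lipid phosphate phosphatase, 17.1-fold, and GASK1B 21.9-fold. CCL2, a chemokine that draws monocytes, was called 8.45-fold higher (adjusted p = 0.0203), though 1 library at 108 CPM stood apart from a median of 28.4 and the call ended under 4 of the other settings. CHRDL1, a BMP antagonist, had 6 parental counts and reached line means of 3.37, 45.5 and 96.3 CPM in shHIF2A, shJUNs and shYAPTAZ.

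Many actin and focal adhesion genes rose. Of 31 tested 16 rose and 3 fell, 13 of the rises with separate libraries and none of the falls, and the median log2 change was 0.46. MYL9, a myosin light chain of contractile fibres, was at 40.8, 67.2 and 66.1 CPM in parental libraries and at 159, 226 and 385 CPM at the lowest, median and highest of the knockdown libraries (4.33-fold, adjusted p = 4.74e-09). LIMA1, an actin bundler, rose 3.43-fold, ACTN1, an alpha-actinin, 1.97-fold and ACTG1, cytoplasmic gamma-actin, 1.91-fold. ACTB was at 1998, 3971 and 4739.8 CPM in parental libraries and at 5438 or more in each knockdown library, but its call (2.01-fold, adjusted p = 0.0313) ended under 7 other settings. The summed level of this list was lowest in parental replicate 1, at 13641 CPM against 17864 and 19402 in the other two, and without it 12 rose and 4 fell.

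Cytosolic heat shock proteins, the chaperones that fold and refold proteins, gave the list with the largest share of rises. Of 20 tested 13 rose and 1 fell, 7 with separate libraries, all higher, and the median log2 change was 0.69. HSPA8, the constitutive HSC70 chaperone (ENSG00000109971, chromosome 11, 123057489 to 123063230), was at 269, 360.4 and 507 CPM in parental libraries and at 870.2, 1091 and 1479.8 CPM at the lowest, median and highest of the knockdown libraries (3.01-fold, adjusted p = 1.51e-06). Its 3 lines did not pass the test among them (adjusted p = 0.14). HSP90AA1, the inducible HSP90, rose 2.34-fold from 298, 638 and 785 CPM to a median of 1240.5, its cochaperone AHSA1 2.46-fold and HSPB8, a small chaperone, 2.89-fold. HSPA1A was the member called lower, with overlapping libraries, and it shares most of its sequence with HSPA1B, which was called higher, so the split of reads between the pair is uncertain. Parental replicate 1 had the lowest summed level of the list, 3454 CPM against 4768.5 and 5310.4, and without it 9 rose and 1 fell.

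Some abundant transcripts outside these lists rose in every library. NEFL, the light neurofilament chain, was at 160.2, 289.9 and 320.0 CPM in parental libraries and at 609, 1458 and 2438 CPM at the lowest, median and highest of the knockdown libraries (4.88-fold, adjusted p = 1.39e-07). It was lowest among the lines in shJUNs, at a mean of 637 CPM, beside 1389 in shHIF2A and 2227 in shYAPTAZ (adjusted p = 1.8e-05 among lines). MT-RNR1, the small ribosomal RNA of mitochondria, rose 1.88-fold from 946, 1338 and 1343 CPM to a median of 2189.8 (adjusted p = 6.28e-07). Of the 13 protein-coding genes of the mitochondrial genome 1 was called higher and 2 lower, or 1 and 1 without parental replicate 1.

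Proteasome and respiration genes rose more modestly. Of 29 proteasome subunits 12 rose and none fell by edgeR, 5 with separate libraries, among them PSMB5, a catalytic subunit, from 120.1, 113 and 122 CPM to a median of 199 (1.78-fold, adjusted p = 9.97e-05). Of 44 respiratory chain and ATP synthase genes encoded in the nucleus 13 rose and 1 fell, and 5 had every library higher, among them UQCRFS1, the Rieske protein of complex III, from 113, 145 and 137 CPM to a median of 262 (1.94-fold, adjusted p = 8.01e-06). Both counts leaned on parental replicate 1, which had the lowest sum of either list. Without it 5 proteasome genes rose and 4 respiration genes rose with 1 lower.

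Interferon-related genes rose unevenly. Of 28 interferon-stimulated genes 9 rose and 2 fell, 2 of the rises with separate libraries, and without parental replicate 1 the counts were 5 and 1. IFI44L had 3 parental counts and 736 over the knockdown libraries, a ratio of 77.0 (95% exact binomial interval 26.2 to 374, counting error only). ISG15 was called higher, 2.73-fold, with overlapping libraries. Its means were 124 CPM in shHIF2A, 123 in shJUNs and 45.6 in shYAPTAZ (adjusted p = 5.8e-05 among lines). The lowest knockdown value, 39.0 CPM in shYAPTAZ, was under the highest parental value of 40.1. Set against parental cells in edgeR, shYAPTAZ did not pass for ISG15 (adjusted p = 0.131). GBP1, GBP2 and GBP3, guanylate-binding proteins that lie side by side on chromosome 1, each had all knockdown libraries higher, GBP2 from 2.44, 1.41 and 6.22 CPM to a median of 29.1 (7.71-fold, adjusted p = 1.3e-05), GBP1 3.88-fold and GBP3 1.84-fold. Near-identical copies make the split of reads within this family uncertain.

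Sensors and machinery that handle double-stranded RNA were listed because all 3 lines express shRNAs. Of 12 sensing genes none rose and 2 fell by edgeR, EIF2AK2, the kinase PKR, 1.39-fold with separate libraries and TLR3 2.85-fold with overlap, and without parental replicate 1 a single fall was called. Over all genes tested 12.2% rose and 13% fell, and of 14 genes of RNA interference 2 rose and 3 fell. All 3 falls had separate libraries: AGO3 1.92-fold, AGO4 2.99-fold and TNRC6C, a partner of Argonaute, 2.64-fold, while AGO2 did not meet the rule. Of 15 genes of epithelial junctions and keratins 4 rose and 1 fell. KRT8 rose 2.31-fold and KRT19 7.87-fold, and KRT19 ranged from a mean of 11.3 CPM in shHIF2A to 305 in shJUNs. Of 14 renal tubule and clear cell markers tested 3 rose and 3 fell, and LHX1, a kidney developmental factor, fell 2.63-fold with separate libraries.

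**Figure D4:**
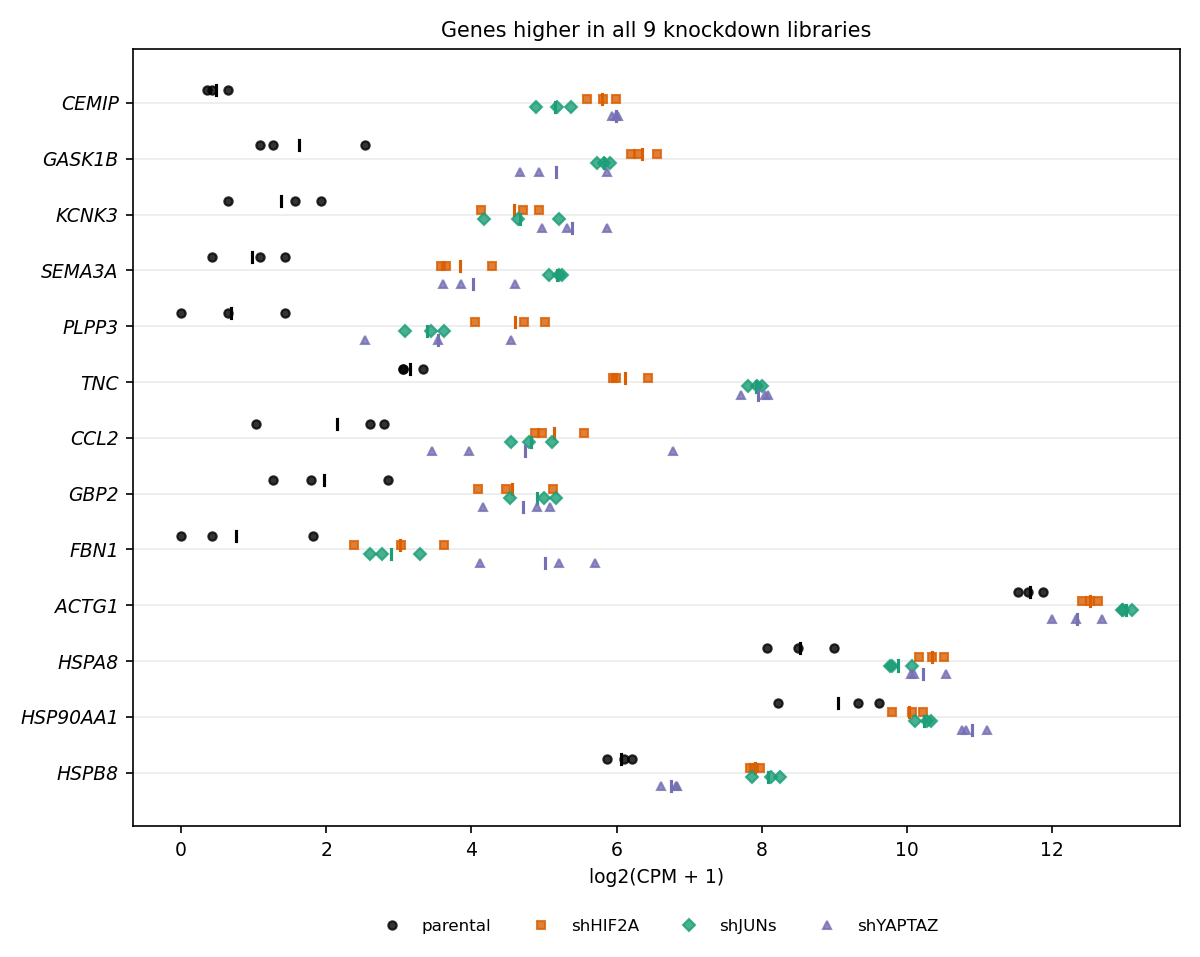
CPM, plotted as log2(CPM + 1), of 13 genes with every knockdown value above every parental value; points are libraries, vertical bars are group means of the plotted values. Parental libraries lie to the left of all 9 knockdown libraries for each gene, by a wide gap for CEMIP and TNC and a narrow one for ACTG1 and HSP90AA1.

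How equal the 3 lines were within the shared response was asked with a test that leaves the parental libraries out, edgeR's test among the 3 knockdown groups. It called 2971 of 12301 genes (24.2%). Of the 660 shared rises 153 differed among lines (23.2%) and of the 797 shared falls 214 did (26.9%), beside 2604 of the 10844 genes with overlap (24.0%). By this count the shared genes differed among lines about as often as the rest. The sets were not matched for level, so the shares do not show equal variation among lines. Where lines differed, the largest change was in shYAPTAZ for 79 rises and 100 falls, in shJUNs for 51 and 41, and in shHIF2A for 23 and 73.

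Each line was also set against parental cells. The shHIF2A line had 1211 genes called higher (9.84%) and 1082 lower (8.8%). For shJUNs the counts were 1271 (10.3%) and 1099 (8.93%), and for shYAPTAZ 1599 (13%) and 1514 (12.3%). These 3 comparisons share the parental libraries. Among shared rises 355 were called in all 3 lines and 32 in none, and among shared falls 335 and 71. The members were picked on the same values, so these counts describe them and add no independent support. The median pooled log2 change was 1.03 for rises and -0.997 for falls. A change of at least 2-fold in every line was seen for 215 rises and 246 falls, and of at least 4-fold for 64 and 37.

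Some members changed by nearly the same factor in each line. CACNB3, a calcium channel subunit, fell from 21.3, 19.96 and 14.1 CPM to line means of 8.58, 8.55 and 8.36 CPM in shHIF2A, shJUNs and shYAPTAZ. TCEA1, an elongation factor, fell from 256, 259 and 209 CPM to means of 109, 112 and 113. In the other direction HMGN2, a nucleosome-binding protein, rose from 7.68, 8.15 and 17.2 CPM to 27.6, 26.4 and 27.1, and SCO2, a copper chaperone of cytochrome oxidase, from 18.5, 16.03 and 15.3 to 39.998, 39.1 and 38.0. These were picked for the small range of their 3 changes, so their likeness is a description.

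Shared genes took a larger or smaller part of the transcriptome as the rule requires. The 660 rises made up 3.88% to 5.03% of CPM in parental libraries and 8.02% to 9.71% in knockdown ones, and the 797 falls 13.4% to 15.5% and 7.63% to 8.58%. The median level per gene went from 69.8 CPM in parental libraries to 34.2 in knockdown libraries for falls, and from 21.4 to 47.3 for rises. The share of genes meeting the rule grew with the level, from 1.98% higher and 3.17% lower under 5 CPM to 9.01% and 11.3% at 100 CPM or more. Among 284 lincRNAs 6 met it as higher (2.11%) and 32 as lower (11.3%), beside 5.81% and 6.46% of 11044 protein-coding genes. Median transcript length was 3586 bases over all genes, 3190 for rises and 3780 for falls.

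Position in the genome was not even. On chromosome 14, 48 of 413 tested genes were higher in all libraries (11.6%) and 1.94% lower, and the median log2 change of all its genes was 0.39. That median was -0.01 in shHIF2A, 0.39 in shJUNs and 0.89 in shYAPTAZ. Chromosomes 16 and 22 had 10.9% and 11.7% of genes higher, with medians of 0.23 and 0.21, while chromosomes 13, 15 and 8 had 10.6%, 10.7% and 10.3% lower, with medians of -0.26, -0.25 and -0.09. These medians also differed by line. In shHIF2A, shJUNs and shYAPTAZ they were 0.04, 0.34 and 0.33 on chromosome 16 and 0.09, 0.31 and 0.27 on chromosome 22. They were 0.03, -0.14 and -0.52 on chromosome 13, -0.12, -0.34 and -0.25 on chromosome 15, and -0.03, -0.07 and -0.07 on chromosome 8. Without genes of these 6 chromosomes 483 rises and 649 falls were left.

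Among the genes named above, AHSA1, HSP90AA1, PSMB5, PYGL and ACTN1, which rose, and EGLN3, which fell, lie on chromosome 14, and IRS2 and LATS2, which fell, on chromosome 13. RPLP1 opens a run of 5 neighbouring falls on chromosome 15 (69452814 to 71053658), with TLE3, UACA, LARP6 and LRRC49. Outside chromosomes 13 and 14, 10 of 17 heat shock proteins rose, 9 of 25 proteasome subunits, 15 of 30 actin genes and 11 of 30 matrix genes, and 21 of 34 HIF targets and 21 of 26 stress response genes fell. The part of chromosome-wide shifts in single genes was not tested.

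**Figure D5:**
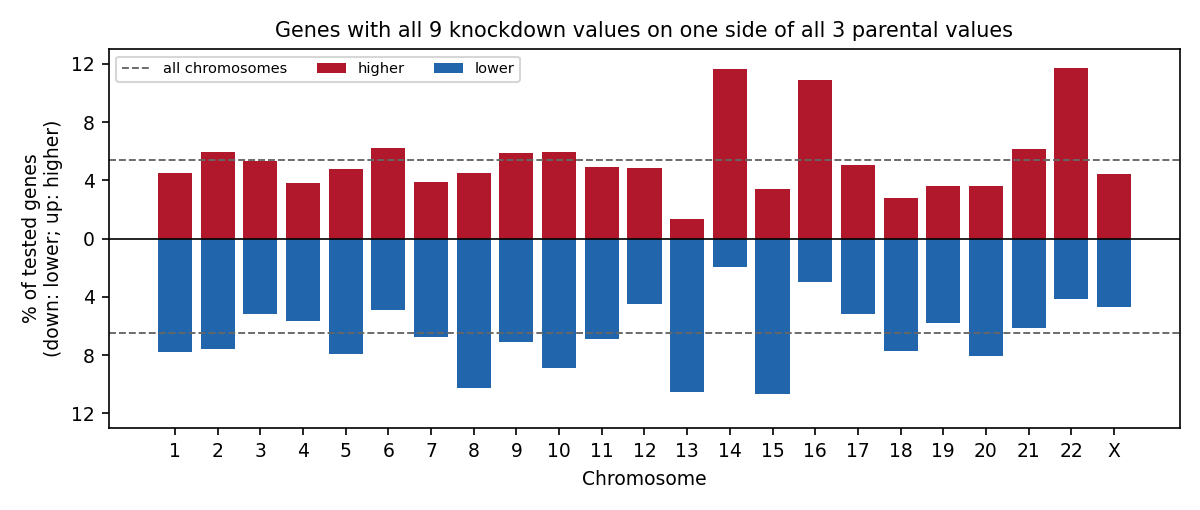
Share of tested genes on each chromosome with all 9 knockdown values above (up) or below (down) all 3 parental values; dashed lines are the shares over all chromosomes, 5.37% and 6.48%. Chromosomes 14, 16 and 22 have the largest shares of genes higher and 8, 13 and 15 the largest shares lower.

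Promoters of the shared genes were searched for short motifs on both strands, from 250 bases before to 50 after the start site (RefSeq, GRCh38.p14). Of the 12301 genes tested 9525 had a promoter in the table. For the core of the hypoxia response element only the form ACGTG was searched, and other forms such as GCGTG were left out. ACGTG was in 27.4% of these 9525 promoters and in 21.6% of all 27305 promoters of the table. It was in 29.3% of the 546 promoters of shared rises and in 26.0% of the 611 of shared falls. Among the 13 promoters of HIF targets with separate libraries 4 held it: BHLHE40, DDIT4, P4HA1 and PLIN2. TGANTCA, the AP-1 site, was in 4.46% of tested, 6.41% of risen and 4.26% of fallen promoters (7.76% of the table), and GGAATG, the TEAD site, in 10.7%, 12.5% and 9.82% (14.05%). TGATGNAA, the C/EBP-ATF site, was in 1.61%, 0.916% and 2.29% (3.67%), with 3 of 16 stress response promoters holding it (ATF3, SLC3A2 and SLC7A1). GAANNTTC, a pair of heat shock units, was in 4.57%, 6.04% and 4.58% (6.87%), with 3 of 7 heat shock protein promoters holding it (DNAJA1, HSPA8 and HSPB8). A match is a run of letters, not a site of binding.

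DDIT4 and PLIN2 are shown as deep shared falls with ACGTG and HSPA8 as a shared rise with heat shock pairs. Each is written 5′ to 3′ on the strand of the gene, with matches to these searched letters in capitals. The windows are chr10:72273674-72273973 on the plus strand, chr9:19127443-19127742 on the minus strand and chr11:123062087-123062386 on the minus strand. Counted from the start site, the match in DDIT4 begins at -125, those in PLIN2 at -120, -69 and -68, the last 2 overlapping as both strands of one palindrome, and those in HSPA8 at -230 and -50.
DDIT4: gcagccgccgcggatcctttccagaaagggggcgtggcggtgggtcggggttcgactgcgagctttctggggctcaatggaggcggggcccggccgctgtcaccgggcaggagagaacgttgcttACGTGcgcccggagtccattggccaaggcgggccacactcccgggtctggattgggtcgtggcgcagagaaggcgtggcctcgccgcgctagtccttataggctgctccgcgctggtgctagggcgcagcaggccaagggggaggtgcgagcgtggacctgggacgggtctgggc
PLIN2: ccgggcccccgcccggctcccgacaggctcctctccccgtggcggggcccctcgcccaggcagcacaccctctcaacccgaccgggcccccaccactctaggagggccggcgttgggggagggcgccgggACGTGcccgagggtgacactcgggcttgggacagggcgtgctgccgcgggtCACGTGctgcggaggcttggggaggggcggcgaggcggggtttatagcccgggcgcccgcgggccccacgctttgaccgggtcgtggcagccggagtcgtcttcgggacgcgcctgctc
HSPA8: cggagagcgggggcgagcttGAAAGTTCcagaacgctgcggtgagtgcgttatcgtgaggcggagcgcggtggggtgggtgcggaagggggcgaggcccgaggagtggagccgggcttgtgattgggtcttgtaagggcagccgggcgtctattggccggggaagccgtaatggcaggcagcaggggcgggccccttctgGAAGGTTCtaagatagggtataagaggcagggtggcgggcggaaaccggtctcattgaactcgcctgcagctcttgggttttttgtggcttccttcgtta

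At the edge of the rule, values of members and non-members were nearly alike. Just inside, LFNG had a highest parental value of 175.8 CPM and a lowest knockdown value of 175.9, and TRIM4 a lowest parental value of 60.45 and a highest knockdown value of 60.35. Just outside, ANXA6 had a highest parental value of 117.9 CPM and a lowest knockdown value of 117.8, and AUP1 a lowest parental value of 111.6 and a highest knockdown value of 111.8. A gap of at least 0.5 on the log2 CPM scale between the nearest libraries was met by 146 rises and 172 falls.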

How the data were processed

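RNA of 4 groups of 786-O cells, 3 libraries each, was sequenced by BRB-seq after extraction with an RNeasy kit, per the labels' protocols. The authors deposited 1 table of raw counts per gene for all 12 libraries, aligned to hg38 with Trim Galore and STAR among the tools, per the submitters' processing notes. The counter, its annotation, the strand setting and the handling of molecular identifiers are not stated in the sources at hand. The table held 62705 lines. One gene broken over 3 lines was left out, which left 62702 genes, and 62624 of their identifiers matched a symbol.

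Counts were analysed with edgeR 4.0.16 in R 4.3.3: filterByExpr by group (12301 genes kept), TMM scaling, 1 mean per group and the quasi-likelihood test, with Benjamini-Hochberg adjustment. The groups were contrasted as the mean of the 3 knockdowns less parental, and as any difference among the 3 knockdowns. The common dispersion was 0.0628, which edgeR expresses as a biological coefficient of variation of 25.1%. Here it covers only the spread between libraries that the labels call technical replicates. The fit was tested on simulated data first. The largest library had 1.97 times the counts of the smallest, and a floor of 3 counts, summed over the parental libraries, was 0.301 CPM. Intervals and floors cover counting error only.

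The members and gene lists were chosen with earlier results of these data known. Named genes were the shRNA targets, and, among separated genes averaging 10 CPM or more, those with the largest change in their least changed line, the largest difference in CPM and the most equal change in each direction. They also took in up to 4 called genes of smallest p per list and the genes nearest the edge of the rule with a mean of at least 50 CPM. Other list members and neighbouring genes named in the text were chosen after their values were seen. The lists cover hypoxia, glycolysis, Hippo and YAP/TAZ, AP-1, stress responses, chaperones, cell division, p53, interferon and RNA sensing, RNA interference, cytokines, lipids, respiration, ribosome, proteasome, NRF2, lysosome, cytoskeleton, adhesion, matrix, epithelium, TGF-beta, Wnt and receptor kinases, plus markers of kidney, blood, endothelial, neural and fibroblast cells. Alternatives used DESeq2 1.42.0, limma 3.58.1 (voom), other scalings and filters, a replicate block and left-out libraries, groups and chromosomes. The chromosome exclusions and the list counts without parental replicate 1 were chosen after seeing the data. Gene types and transcript lengths came from GENCODE, and promoter and microRNA sequences from RefSeq.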

Additional observations from a re-analysis of the deposited data

Results flagged for a closer look

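Some named genes had changes from parental cells that differed widely among the 3 lines, by edgeR's test among the knockdown groups (adjusted p under the threshold for each). The value given is the distance between the largest and the smallest of the 3 log2 changes. It depends on the fit's prior count where a group had almost no counts. For LEF1, a Wnt transcription factor, it was 8.88, with means of 15.1 CPM in parental cells, 12.97 in shHIF2A, 0 in shJUNs (no count, which allows up to 0.236 CPM at 3 counts over the group) and 17.0 in shYAPTAZ. For NID2, a basement membrane protein, it was 5.75, and shYAPTAZ stood apart at 128 CPM. For EDA2R, a receptor that p53 induces, it was 5.36, and for XAF1, an interferon-induced gene, 4.46. Both were low only in shYAPTAZ among the groups, at 0.338 and 0.656 CPM.

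Members of the shared response also appeared here. SATB1 had a range of 5.17 and CHRDL1 of 4.82, both smallest in shHIF2A. IGFL3, a secreted IGF-like protein, had a range of 5.07, falling from 38.4, 36.8 and 40.7 CPM in parental libraries to means of 3.72 in shHIF2A, 0.0745 in shJUNs and 0.656 in shYAPTAZ. KRT19 had a range of 4.75 and was highest in shJUNs. In all, 367 genes with separate libraries differed among the lines by the edgeR test.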

How the results depend on the processing

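The counts of called and separated genes moved with some choices. A fit of 2 groups, 9 libraries against 3, called 731 genes higher and 661 lower, where differences among lines enter the spread by construction. Leaving out 1 library gave 925 to 1671 genes called higher and 1020 to 1803 lower. The lowest counts came without parental replicate 1, where 862 of the 1498 and 968 of the 1599 calls remained. With fewer libraries the separation rule is looser by construction: it gave 682 to 1091 rises and 859 to 1240 falls without 1 library, 1140 and 1196 without the shHIF2A group, and 1293 and 1244 without the shYAPTAZ group. A gap of at least 0.5 gave 146 and 172. DESeq2 called 1700 genes higher and 1700 lower, and limma-voom 1343 and 1736. The 367 separated genes that differed among lines ranged from 280 to 457 over the alternatives run. The labels do not say what the replicate numbers share, and same-numbered libraries were not treated as pairs: their deviations correlated at a median of 0.0524 (range -0.0095 to 0.2205, over 0.1 in 5 of 18 pairs). Still, 8 of 12 libraries correlated best with their own number, and in each of the 4 groups the mitochondrial share of counts was highest in the library numbered 1 and lowest in that numbered 3 (7.64%, 7.29% and 6.91% in parental cells). The S phase sum ran the other way in each group. The part of this shared order in the results was tested only by the block. With the replicate block 1775 genes were called higher, 1840 lower and 457 separated genes differed among lines, and no named gene lost its call. Of 161 named genes called, 46 lost the call under at least 1 of the 22 alternatives run on single genes and none changed direction, with ACTB and CCL2 among the 46. At an unadjusted p under 0.05 the pooled test would take 4494 genes. Genes under 5 CPM met the rule less often, and depth limits what could be seen there.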

Other observations

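Single integrins changed in both directions. Of 13 tested 3 rose and 2 fell by edgeR, beside 12.2% and 13% of all genes tested. ITGB8, a subunit of a receptor that releases TGF-beta from its latent form, was at 101, 128 and 142 CPM in parental libraries and at 12.7, 24.6 and 59.5 CPM at the lowest, median and highest of the knockdown libraries (4.27-fold lower, adjusted p = 4.18e-09). ITGB5, another partner of ITGAV, fell 1.89-fold from 534, 481 and 452 CPM to a median of 298 (adjusted p = 6.09e-07). ITGAV itself rose 1.53-fold, and ITGB6 3.93-fold from a parental maximum of 5.06 CPM. TGFB1, the ligand, fell 2.75-fold with overlapping libraries, while ID3, a target of BMP signals, rose 2.79-fold from 79.6, 127 and 165 CPM to a median of 334 (adjusted p = 5.99e-06). Of 27 genes of TGF-beta and BMP signalling 8 fell and 4 rose.

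The list of Wnt receptors and targets, which also holds ligands and transcription factors, gave 5 rises and 5 falls of 24. The rises were WNT7B, FZD1, TCF7, LGR4 and DKK3, and the falls FZD8, LEF1, ROR2, FZD7 and FZD6. ROR2, a receptor for non-canonical Wnt ligands, was at 17.8, 18.0 and 17.5 CPM in parental libraries and had a knockdown median of 3.86 CPM (4.45-fold lower, adjusted p = 0.00138), and FZD1 rose 2.34-fold. Endoplasmic reticulum chaperones gave 6 rises and 3 falls of 18 (4 and 1 without parental replicate 1), with SDF2L1 2.00-fold higher and PDIA3 1.33-fold lower, both with separate libraries. NRF2 targets gave 6 rises and 4 falls of 20, with HMOX1, heme oxygenase, 2.01-fold higher and SLC7A11, the cystine transporter, 2.44-fold lower. Cholesterol synthesis (3 rises and 3 falls of 21), lysosome and autophagy (3 and 7 of 28) and NF-kB targets and cytokines (3 and 3 of 25) showed no common direction. Without parental replicate 1 their counts were 1 and 2, 2 and 4, and 1 and 2. Over all genes tested 12.2% were called higher and 13% lower with all libraries in.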
